A study of Mus musculus with 5 samples.

Results

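The study named *Fscn1*, *Evl*, *Fblim1*, *Tes*, *Marcksl1*, *Farp1* and *Tubb3* among the targets of SOX11. These 7 genes of the actin and microtubule cytoskeleton were grouped here. A ChIP-seq peak was given to one of these 7 genes when its centre lay in the gene or within 10 kb of it, or when the protein-coding transcription start nearest to the centre was a start of that gene. By this rule 16 of 21270 SOX11 peaks and 3 of 2669 SOX4 peaks belonged to the 7 genes, and every one of them is described here. The study listed *Fscn1*, *Evl*, *Fblim1*, *Marcksl1* and *Farp1* as direct targets with these peak lists and its expression data in view. *Tes* was named for a high SOX11 peak whose region was enriched by ChIP-qPCR in freshly isolated epidermal cells. *Tubb3* was named as a known target used to check the ChIP. The fact that 7 of 7 had a SOX11 peak is thus fixed by the choice and is no result. Comparisons of the 7 genes with all protein-coding genes, many of them without a SOX11 peak, are partly fixed by the same choice. ChIP-seq was done on primary keratinocytes from newborn mice that combined floxed alleles of a mixed 129SvEx:C57BL/6 background with Krt14-Cre from FVB/N mice, of the genotype Krt14-Cre;Sox11fl/fl;Sox4fl/fl, in which Cre under the keratin 14 promoter, active in basal keratinocytes, removes both factors (dcKO). The dcKO cells were transduced with a lentivirus that expressed either factor, with 3 FLAG epitopes attached, from a doxycycline-inducible promoter, were given doxycycline for 24 h and were precipitated with an anti-FLAG antibody. All groups therefore shared the loss of the endogenous factors, and the peaks are those of induced, tagged protein. There were 2 SOX11-FLAG libraries, 2 SOX4-FLAG libraries and 1 control library (an input by its title, an IgG precipitate by its antibody label; its labels name no lentivirus), and each factor had 1 deposited list made from both of its libraries.

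A list held only positions, without a height or a score for any peak. The depth behind a peak is thus unknown, no spread between replicates can be given, and no test of a difference was made. Counts for the 7 genes are set beside the same counts over all 22380 protein-coding genes or all SOX11 peaks. Nearly all SOX11 peaks were 258 bp wide and nearly all SOX4 peaks 340 bp. The peaks were numbered here by their place in the deposited list, whose order the sources used here do not explain. Coordinates are those of mm9, counted from 1.

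SOX11 and SOX4 are close relatives of the SOXC group of transcription factors. They bind the minor groove of DNA through an HMG box, at sites built on the letters CATTGT or CTTTGT, and are known for their part in progenitor cells of the embryo, neurons and other tissues. A keratinocyte moves by pushing out filopodia and lamellipodia of polymerising actin, by gripping the matrix at focal adhesions, and by steering both with the help of microtubules. The 7 genes take part in these tasks. FSCN1 (fascin) bundles actin filaments in filopodia and EVL, of the Ena/VASP family, speeds the growth of filament ends. FBLIM1 (migfilin) and TES (testin) are LIM-domain proteins of focal adhesions. MARCKSL1 binds actin and the inner face of the plasma membrane, FARP1 is a FERM-domain protein, and TUBB3 is the class III β-tubulin best known from neurons.

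The sequences under the SOX11 peaks were read from mm9, and those that carry the results are shown here, 5′ to 3′, with capitals marking a SOX core. A SOX core was CATTGT or CTTTGT on either strand. The first set shows 30 bases around a core, read on the strand on which it reads CATTGT or CTTTGT, and was chosen to compare the cores of the peaks within 1 kb of a transcription start; those of *Tubb3* peak 3581 and *Evl* peak 4363, farther from a start, are shown beside them.
*Tes*, core of peak 18, chr6:17015139-17015168, plus strand: ctgccagggcctCTTTGTtccaggtcccag
*Fblim1*, core of peak 752, chr4:141155923-141155952, plus strand: cgcgccccctccCTTTGTtcccaccactcc
*Fblim1*, core of peak 8404, chr4:141154660-141154689, minus strand: gactttctttccCTTTGTtcccactttctc
*Tubb3*, core of peak 1690, chr8:125935345-125935374, plus strand: cagagcctgccgCATTGTgcggcgctccag
*Tubb3*, core of peak 3305, chr8:125936053-125936082, plus strand: cccaccctgttcCTTTGTtggaggagttcg
*Tubb3*, core of peak 3581, chr8:125938033-125938062, plus strand: tttgtgtgctccCTTTGTtagggcctgagc
*Evl*, core of peak 4871, chr12:109792813-109792842, minus strand: ggcggggcgaagCTTTGTggaaagggtggc
*Evl*, core of peak 4363, chr12:109741371-109741400, plus strand: tacctgccatctCTTTGTctagcccttcag
*Farp1*, core of peak 18093, chr14:121435154-121435183, minus strand: tcccgccgcggtCATTGTtcgccgcacgcc

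The second set shows longer stretches. The *Marcksl1* peak is given whole because it held 4 cores and was shared with SOX4, and the *Fscn1* peak because it held none. Of the *Tes*, *Fblim1* and *Tubb3* peaks at starts, the part upstream of the annotated start is given, on the strand of the gene.
*Marcksl1*, whole peak 407, chr4:129191232-129191489, plus strand: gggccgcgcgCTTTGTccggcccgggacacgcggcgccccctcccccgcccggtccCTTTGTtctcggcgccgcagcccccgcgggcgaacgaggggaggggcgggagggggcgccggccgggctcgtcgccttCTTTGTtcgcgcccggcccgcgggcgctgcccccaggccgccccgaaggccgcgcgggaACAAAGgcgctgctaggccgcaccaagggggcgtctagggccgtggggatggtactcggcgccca
*Fscn1*, whole peak 9624, chr5:143797755-143798012, plus strand: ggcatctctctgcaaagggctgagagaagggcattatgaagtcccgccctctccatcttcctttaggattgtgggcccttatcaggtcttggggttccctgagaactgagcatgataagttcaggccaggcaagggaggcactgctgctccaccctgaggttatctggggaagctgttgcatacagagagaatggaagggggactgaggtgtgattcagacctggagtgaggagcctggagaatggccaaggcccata
*Tes*, upstream part of peak 18, chr6:17015028-17015148, plus strand: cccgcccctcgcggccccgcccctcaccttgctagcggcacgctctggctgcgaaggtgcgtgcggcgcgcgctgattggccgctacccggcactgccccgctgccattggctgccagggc
*Fblim1*, upstream part of peak 752, chr4:141155948-141156069, minus strand: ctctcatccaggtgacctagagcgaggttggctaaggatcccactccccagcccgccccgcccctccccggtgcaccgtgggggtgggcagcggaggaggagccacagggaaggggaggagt
*Tubb3*, upstream part of peak 1690, chr8:125935213-125935323, plus strand: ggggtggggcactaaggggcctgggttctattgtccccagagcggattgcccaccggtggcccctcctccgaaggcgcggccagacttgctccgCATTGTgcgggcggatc

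*Evl* had 4 SOX11 peaks, *Fblim1*, *Tes* and *Tubb3* had 3 each, and *Fscn1*, *Marcksl1* and *Farp1* had 1 each. Among all protein-coding genes, 57.3% had at least 1 SOX11 peak by the same rule, 14.8% had at least 3 and 7.91% at least 4. A SOX4 peak was given to *Fblim1*, *Tes* and *Marcksl1*, 1 each, so that 3 of the 7 genes had one, beside 13.1% of all protein-coding genes. Inside the gene or within 10 kb of it lay 10 of the 16 SOX11 peaks, and 6 were given by the nearest start alone.

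A SOX11 peak was centred within 1 kb of a protein-coding start of 6 of the 7 genes, all but *Fscn1*, where 27.4% of all protein-coding genes had one. A SOX4 peak stood within 1 kb of a start of 3 of the 7, beside 4.12% of all protein-coding genes. Among the 16 SOX11 peaks, 5 were centred in a promoter, 8 in an intron and 3 between protein-coding genes. A promoter here began 1 kb before a start and ended 100 bp after it. In the whole list the promoter share was 21.8%, the intron share 34.3% and the share between protein-coding genes 40.5%. The 7 genes were chosen as SOX11 targets, so their contrast with all protein-coding genes is partly fixed by the choice. Whether these shares differ was not tested.

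**Figure D1:**
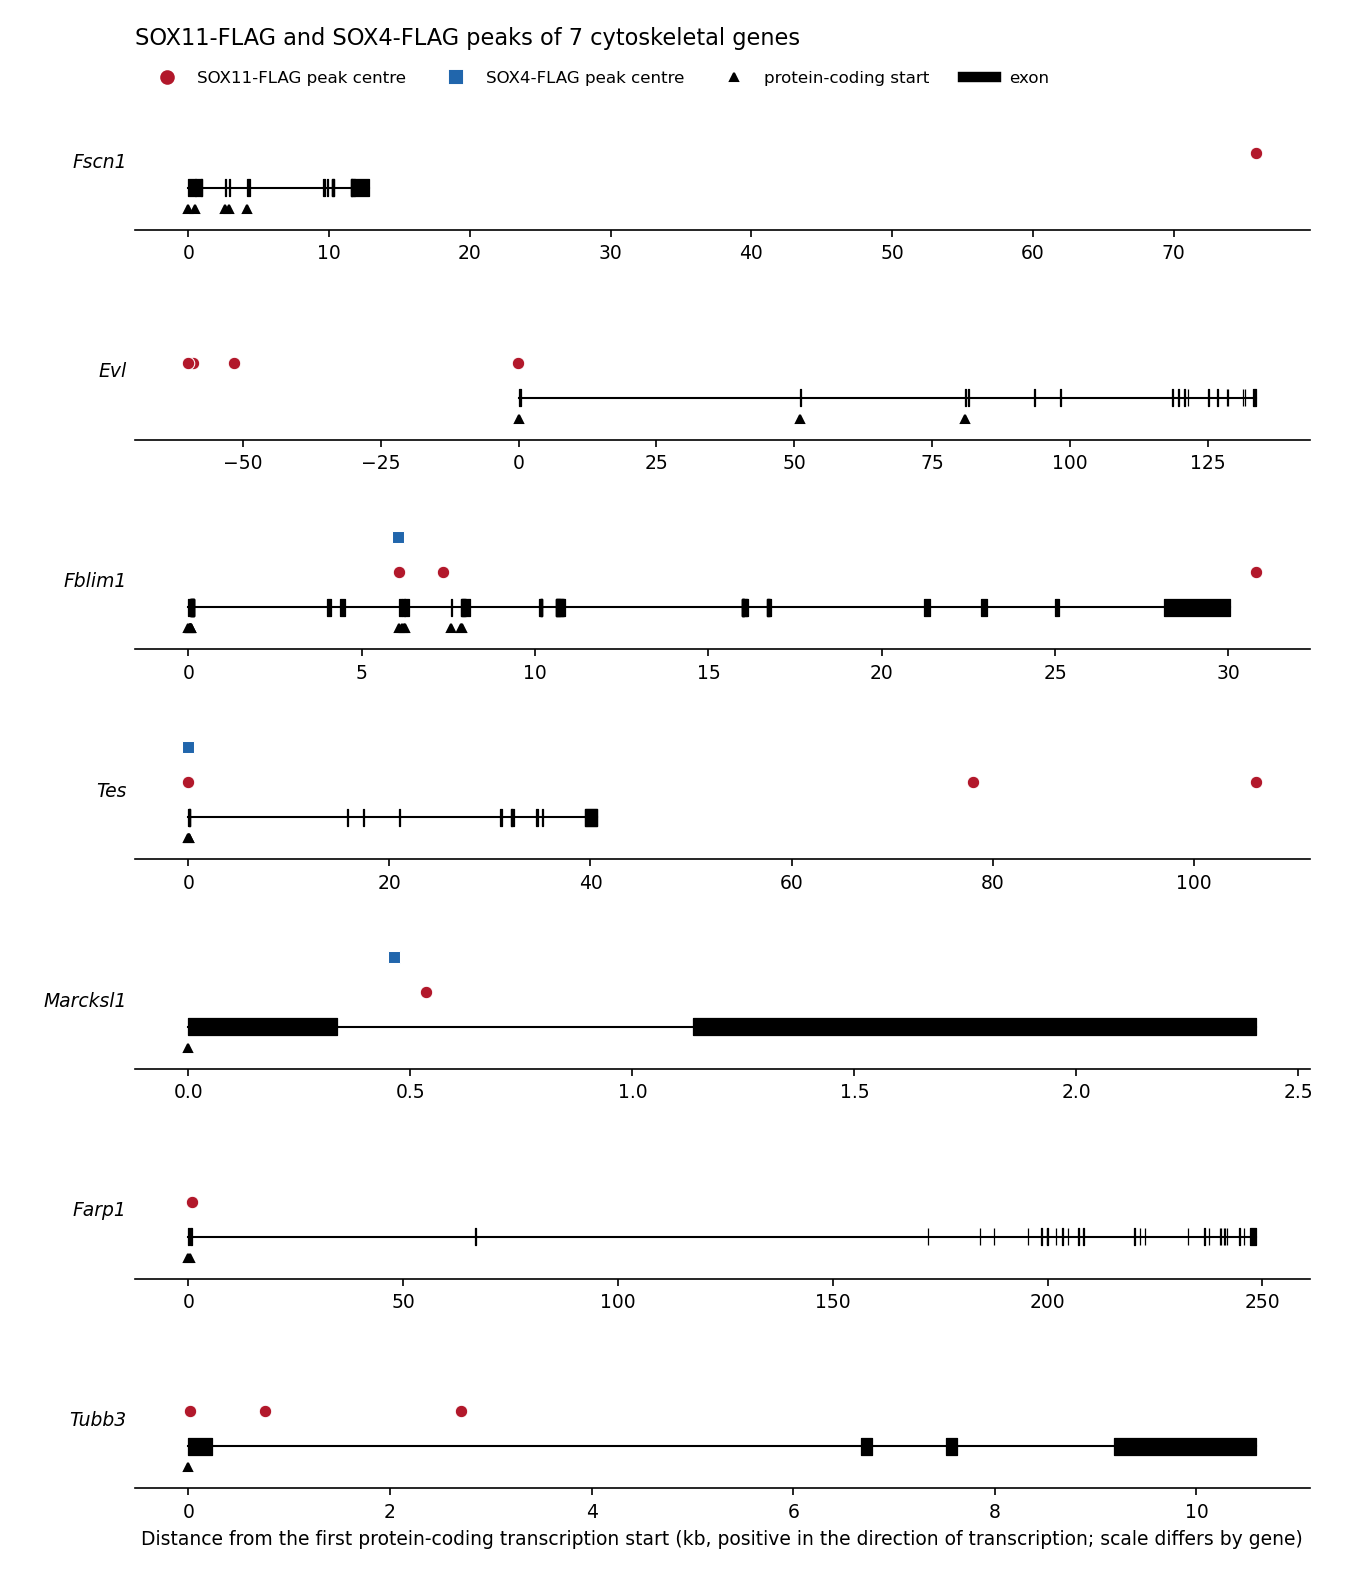
Peak centres of SOX11-FLAG (red circles) and SOX4-FLAG (blue squares) along the 7 genes, in kb from the first protein-coding start and positive in the direction of transcription, with exons as black boxes, protein-coding starts as triangles and a scale of its own for each gene. The 3 SOX4 peaks sit over SOX11 peaks of *Fblim1*, *Tes* and *Marcksl1*, where 94.5% of all SOX4 peaks overlap a SOX11 peak. The only *Fscn1* peak lies 75.9 kb past the first start.

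*Fscn1* (ENSMUSG00000029581, chr5:143722022-143734864, plus strand) had no peak of either factor in the gene or within 10 kb. Its 1 SOX11 peak, number 9624, lay at chr5:143797755-143798012, 71.7 kb downstream of the last of its 5 protein-coding starts, in an intron of the neighbouring ubiquitin ligase gene *Rnf216*. That peak was 76.8 kb from the nearest start of *Rnf216* itself, and was the first SOX11 peak downstream of *Fscn1*, 63 kb from its end. On the upstream side the first peak of both factors was at the start of *Actb*, the gene of cytoplasmic β-actin, 54.5 kb from *Fscn1*, where the SOX11 peak was number 94 and the SOX4 peak number 156. *Actb* lies outside the rule for named genes and was chosen after its values were seen. The study also reported that SOX11 activated a reporter carrying a cloned *Fscn1* region described as holding its peak. Reporters with regions of *Fblim1* and *Marcksl1* were activated as well. In freshly isolated epidermal cells the study's ChIP-qPCR found enrichment mostly at sites with high peaks, *Tes* among them, and at a *Fblim1* region. It found none at several sites with smaller peaks, that of *Fscn1* among them. The study proposes harsher sonication of these cells as a possible reason. It also reported less FSCN1 in dcKO epidermis and more in skin that overexpressed SOX11. Whether the cloned *Fscn1* region is peak 9624 was not examined here. Among the 12187 genes at least as long as *Fscn1*, 37.3% also had no SOX11 peak in the gene or within 10 kb.

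*Evl* (ENSMUSG00000021262, chr12:109792930-109926723, plus strand) had 1 SOX11 peak at its first start and 3 far upstream. The peak at the start, number 4871 at chr12:109792771-109793028, was centred 30 bp upstream of it. The other 3, numbers 4363, 5843 and 12252, were centred 51.5, 59 and 59.9 kb upstream of the start, at chr12:109741251-109741508, chr12:109733759-109734016 and chr12:109732919-109733176. All 3 lay in an intron of *Eml1*, which encodes a microtubule-associated protein, and were 72 to 80.4 kb from the nearest protein-coding start of *Eml1*. Peaks 12252 and 5843 were 840 bp apart, a spacing of at most 1000 bp that only 3.89% of SOX11 peaks had to their nearest neighbour. In the 134 kb of *Evl* downstream of its first start there was no further peak, and the nearest SOX4 peak was 269 kb away. When starts of all transcripts of protein-coding genes were used in place of protein-coding transcripts, the 3 upstream peaks fell to *Eml1* and *Evl* had 1.

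*Fblim1* (ENSMUSG00000006219, chr4:141131977-141162011, minus strand) has several groups of starts, and none of its peaks was at the first. Peak 752, at chr4:141155812-141156069, was centred 6 bp downstream of an internal start, in the 5′ UTR that begins there and 6.07 kb inside the gene. SOX4 peak 1629, at chr4:141155788-141156127, covered all 258 bp of it, with centres 17 bp apart. Peak 8404, at chr4:141154528-141154785, was in an intron, 225 bp upstream of another internal start. Peak 3129, at chr4:141131082-141131339, was 766 bp past the 3′ end of the gene. The migfilin gene therefore carried its shared peak and a second peak 1.28 kb away, both within 1 kb of internal starts.

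*Tes* (ENSMUSG00000029552, chr6:17015149-17055828, plus strand) held the earliest of all these peaks. Peak 18, at chr6:17015028-17015285, was centred 8 bp downstream of the first start, in the 5′ UTR. SOX4 peak 50, at chr6:17014990-17015329, covered it fully, and the 2 centres were 3 bp apart. The other SOX11 peaks of *Tes*, numbers 3989 and 4524, were 78 and 106 kb downstream of its nearest start, at chr6:17093060-17093317 and chr6:17121236-17121493, between protein-coding genes. Upstream of *Tes* the next SOX11 peak was 2.87 Mb away and the next SOX4 peak 3.45 Mb, so the testin start stood alone on that side.

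*Marcksl1* (ENSMUSG00000047945, chr4:129190825-129193229, plus strand) is a gene of 2.4 kb with a single protein-coding start. Its SOX11 peak, number 407 at chr4:129191232-129191489, lay in its intron, 536 bp downstream of the start. SOX4 peak 361, at chr4:129191119-129191458, was centred 464 bp downstream of the start and overlapped the SOX11 peak over 227 bp. The centres were 72 bp apart, the widest of the 3 shared sites, beside a median of 24 bp over all 2522 SOX11 peaks that overlap a SOX4 peak; 18.9% of those were more than 70 bp apart. The peak is also within 10 kb of the histone deacetylase gene *Hdac1*, whose nearest start is 28.6 kb off.

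*Farp1* (ENSMUSG00000025555, chr14:121434422-121682966, plus strand) is the longest of the 7, at 249 kb, and had its 1 peak at the very beginning. Peak 18093, at chr14:121435048-121435305, was centred in the first intron, 391 bp downstream of the nearest start. Among the 707 genes at least as long, 52.2% also had at most 1 SOX11 peak in the gene or within 10 kb, and the median was 1. *Farp1* had the latest place in the list of all 16 peaks and no SOX4 peak within 95 kb of its ends.

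*Tubb3* (ENSMUSG00000062380, chr8:125935324-125945915, plus strand) had 3 SOX11 peaks in the first 2.7 kb of a gene of 10.6 kb. Peak 1690, at chr8:125935213-125935470, was centred 18 bp downstream of its start. Peaks 3305 and 3581, at chr8:125935954-125936211 and chr8:125937897-125938154, lay in the first intron, 759 and 2702 bp downstream of the start. Neighbouring centres were 741 and 1943 bp apart. Of the 9192 genes that are no longer than *Tubb3*, 1.9% had 3 or more SOX11 peaks in the gene or within 10 kb. None of the 3 overlapped a SOX4 peak, and the nearest SOX4 peak was 390 kb from the gene. By ChIP-qPCR, however, the study found SOX4-FLAG at a known *Tubb3* site, more weakly than SOX11-FLAG. It proposes that its SOX4 data could miss many sites. The 3 peaks are within 10 kb of *Mc1r*, the melanocortin 1 receptor gene, and of *Tcf25* as well, and the annotated readthrough gene *Gm20388* spans them, but the nearest start was that of *Tubb3* in each case.

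The peaks that overlapped SOX4 were the earliest in the SOX11 list. Among the 16 SOX11 peaks, 3 overlapped a SOX4 peak by at least 1 bp, beside 11.9% of the whole list. They were numbers 18, 407 and 752, the 3 earliest of the 16, and all lay in the first 1000 peaks, of which 81.1% overlapped a SOX4 peak. Number 1690 of *Tubb3*, the next in order, fell among the second 1000, of which 45.9% overlapped. The 4 peaks between 3001 and 4000 came from a stretch with 17.5% and none of them overlapped. The latest, that of *Farp1*, came from one with 2.3%. The SOX4 peaks themselves stood at numbers 50, 361 and 1629 of the SOX4 list, so those of *Tes* and *Marcksl1* were early in both lists, whereas that of *Fblim1* was at 61% of the SOX4 list and at 3.54% of the SOX11 list.

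**Figure D2:**
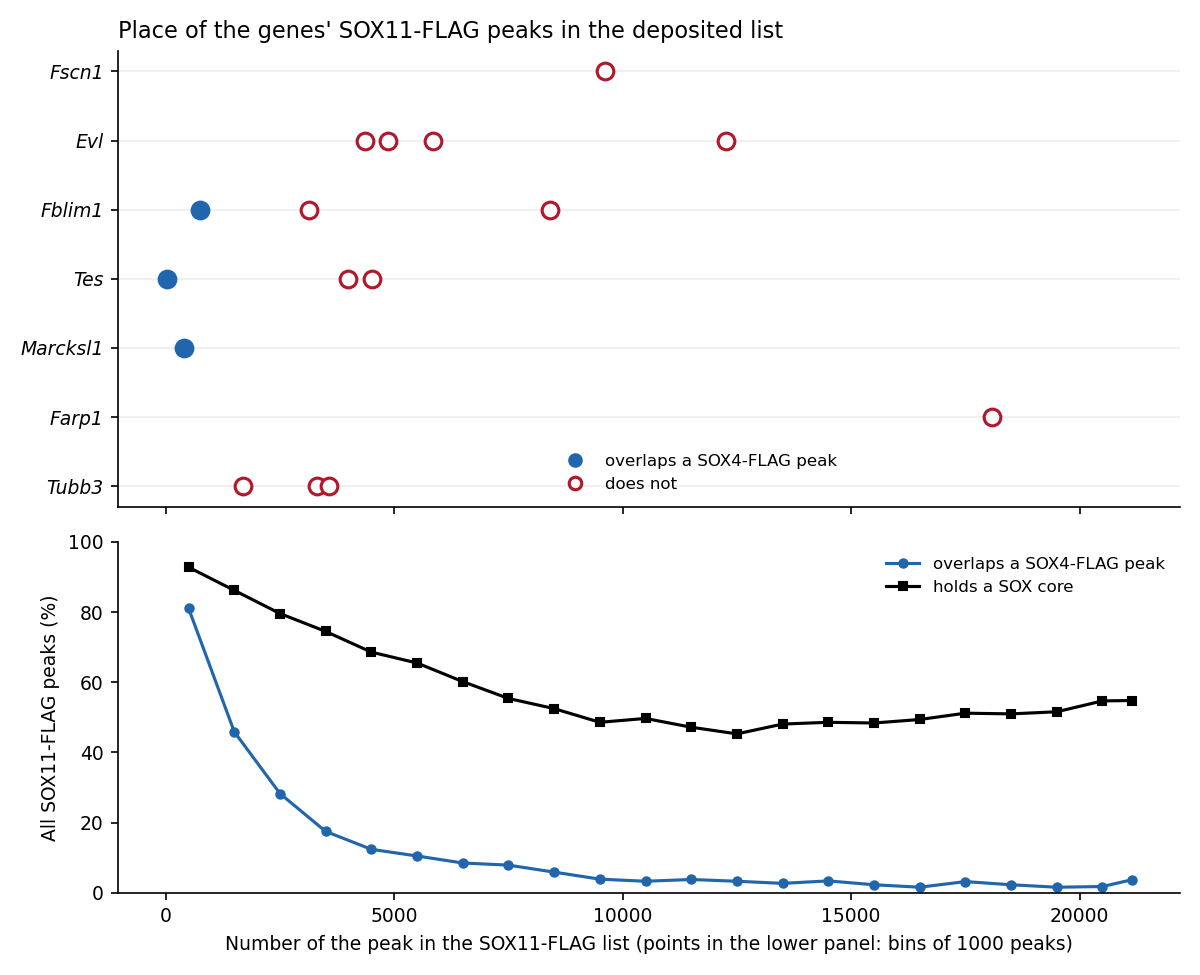
Upper panel, number in the deposited SOX11-FLAG list of each of the 16 peaks by gene, filled where the peak overlaps a SOX4-FLAG peak. Lower panel, share of all SOX11-FLAG peaks that overlap a SOX4-FLAG peak (blue) or hold a SOX core (black) in successive bins of 1000 peaks: the overlap falls from 81.1% in the first bin to 17.5% in the bin from 3001 to 4000, and the 3 filled points are all in the first bin.

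A SOX core was present in 15 of the 16 SOX11 peaks, all but that of *Fscn1*. In the whole list 58.5% of SOX11 peaks had one, and in sequences of the same width shifted 2 kb towards higher coordinates 32.2%. The shifted sequences of the 16 peaks had a core in 7 cases (43.8%). Among these was the sequence shifted from *Tubb3* peak 3305, which fell largely in *Tubb3* peak 3581 and held the 2 cores of that peak. Along the list the share fell from 92.8% in the first 1000 peaks to 45.3% between 12001 and 13000. It was higher again later, at 54.7% between 20001 and 21000. Of the 16 peaks, 12 stood among the first 6000, where the share was 65.5% or more in every 1000. The 5 peaks in promoters all had one, as did 37% of all SOX11 peaks in promoters, but so did 4 of the 5 shifted sequences of these same peaks, beside 32.8% for all peaks in promoters. Outside promoters it was 10 of 11, beside 64.5%, and 3 of the 11 shifted sequences, beside 32%. The *Tubb3* sequence that fell in another peak is among these 3. The 15 peaks held 21 cores, of which 16 were of the form with T as the second letter and 5 of the form with A. The first form made up 76.2% of these cores, beside 72.3% of the 16650 cores in all SOX11 peaks with a base on both sides.

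The core nearest to the centre was 3 bp from it in the *Tes* and *Fblim1* peaks shared with SOX4 and 8 bp in that of *Marcksl1*. Over the 15 peaks the median distance was 9 bp, with a range from 3 to 76 bp, and over all SOX11 peaks with a core it was 18 bp. In 11 of the 16 peaks a core lay within 25 bp of the centre, beside 34.9% of all SOX11 peaks and 66.7% of those that overlap SOX4. The 4 peaks whose nearest core lay farther out were the 2 distal *Tes* peaks (76 and 64 bp) and the *Evl* peaks 4871 and 5843 (72 and 31 bp). In the *Marcksl1* peak the SOX4 centre was 2 bp from the second of the 4 cores, whereas the SOX11 centre was 8 bp from the third, 78 bp further on.

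At 3 of the 5 promoter peaks a core lay within 50 bp of a start, as in 9.68% of all SOX11 peaks in promoters. In *Tes* it lay 2 to 7 bp downstream of the start, in *Fblim1* 7 to 12 bp, and in *Tubb3* 1 core ended 12 bp before the start and the other began 33 bp after it. Multiple cores were found in 4 peaks, those of *Marcksl1* and the 3 of *Tubb3*, beside 16.6% of all SOX11 peaks with at least 2. *Marcksl1* had 4, a number reached by 87 of all SOX11 peaks (0.409%). Its cores were 46, 78 and 59 bp apart, the first 3 on the strand of the gene and the last on the other strand. The cores of *Tubb3* were 50, 116 and 13 bp apart within their peaks.

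Letters next to the core were also alike in some peaks. The cores of *Fblim1* peaks 752 and 8404 shared a run of 15 bases, tccCTTTGTtcccac, and both cores of *Tubb3* peak 1690 shared 13 bases, ccgCATTGTgcgg. Over the 129 pairs of member cores with the same 6 letters, leaving out pairs within 30 bp of each other, the median run was 7 bases. A T followed the core in 13 of 21 cases (61.9%), beside 37.7% of the cores in all SOX11 peaks. These runs were picked as the longest after the sequences were seen and are a description.

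**Figure D3:**
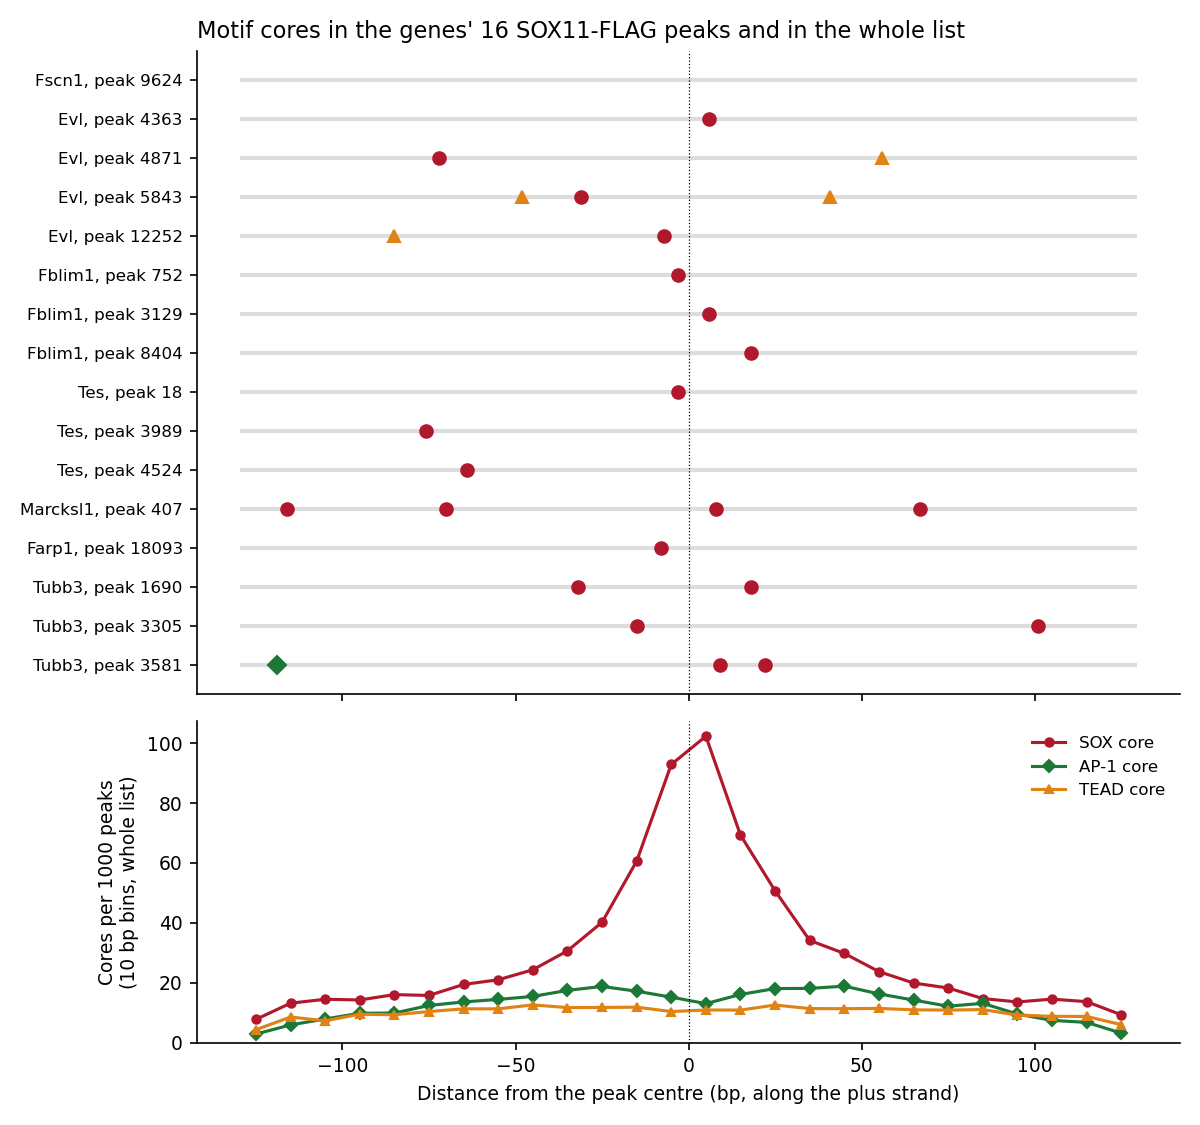
Upper panel, position of each SOX core (red), AP-1 core (green) and TEAD core (orange) from the centre of the 16 SOX11-FLAG peaks, in bp along the plus strand. Lower panel, number of cores per 1000 peaks in 10 bp bins over the SOX11-FLAG peaks of the common 258 bp width. SOX cores pile up at the centre, where 11 of the 16 peaks also have one within 25 bp, and the peak of *Fscn1* has none of the 3 motifs.

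An AP-1 core, TGACTCA or its reverse complement TGAGTCA, was present in 1 of the 16 SOX11 peaks, beside 28.5% of the whole list and 4.59% of the shifted sequences. It was in *Tubb3* peak 3581, 119 bp from the centre. In promoters 5.7% of all SOX11 peaks had an AP-1 core and elsewhere 34.9%, and among the 11 peaks outside promoters it was 1 (9.09%). A TEAD core, GGAATG on either strand, was in 3 of the 16 peaks (18.8%), all of *Evl* (4871, 5843 and 12252), beside 22.8% of the whole list. Over all SOX11 peaks it was in 13.4% of the shifted sequences, in 10.3% of the peaks in promoters and in 26.3% of those elsewhere. None of the cores of the 3 motifs in these peaks overlapped another. A match to these letters is a description of the window and not a bound site.

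The 250 bases before to 50 after an annotated start were also searched in RefSeq promoters of GRCm38.p6, which hold 6 of the 7 genes. A SOX core was in 28.6% of the 32851 promoters. The promoter of *Fscn1* had 2 although no peak was listed at the gene, *Tubb3* had 2, *Tes* had 1, and that of *Marcksl1* had none, its 4 cores lying in the intron. Of the 2 *Fblim1* promoters 1 had a core, and the 2 *Evl* promoters had 1 and 2. A promoter of *Fblim1* held an AP-1 core, as did 5.2% of all promoters.

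Most of the peaks within 1 kb of a start, but not all, were rich in G and C. The shares of G and C were 72.9% in *Tes* peak 18, 72.5% in *Fblim1* peak 752, 75.2% in *Evl* peak 4871 and 68.6% in *Tubb3* peak 1690, beside a median of 64.7% over all SOX11 peaks in promoters. *Fblim1* peak 8404, also in a promoter, was below that median at 61.6%, and *Tubb3* peak 3305, in the first intron 759 bp from the start, was at 53.9%. The intronic peaks of *Marcksl1* and *Farp1*, 536 and 391 bp inside their genes, both reached 79.1%, a value that 0.337% of SOX11 peaks outside promoters and 2.31% of those in promoters reached or passed. The distal peaks of *Tes*, *Evl* and *Fscn1* lay between 46.1% and 58.9%, beside a median of 49.6% outside promoters.

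**Figure D4:**
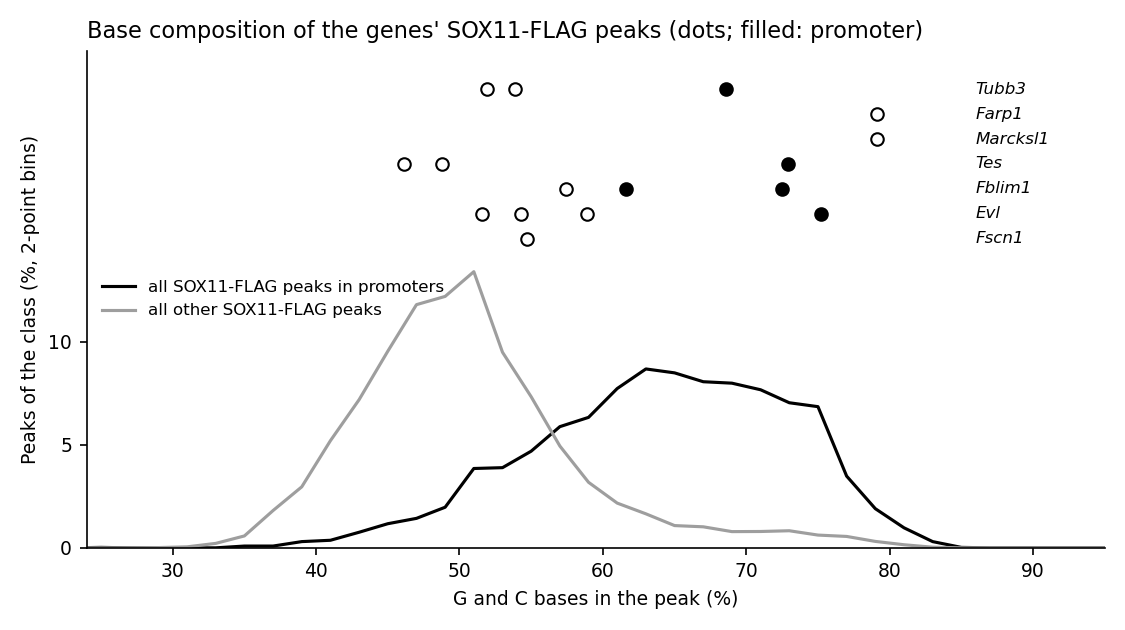
Share of G and C bases in each of the 16 SOX11-FLAG peaks (dots by gene, filled where the centre is in a promoter), above the distribution over all SOX11-FLAG peaks in promoters (black) and elsewhere (grey) in bins of 2 percentage points. The unfilled dots of *Marcksl1* and *Farp1* at 79.1% stand at the upper end of both distributions, above the 5 filled dots.

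Close relatives of the 7 genes also had peaks. Of 23 relatives, 17 (73.9%) had a SOX11 peak by the same rule, beside 57.3% of all protein-coding genes. A SOX4 peak was given to 5 (21.7%), beside 13.1%, and 12 (52.2%) had a SOX11 peak within 1 kb of a start, beside 27.4%. Of the fascins *Fscn2* had 2 SOX11 peaks and *Fscn3* none. The Ena/VASP genes *Enah* and *Vasp* had 4 and 1, with none within 1 kb of a start. Among the zyxin family, LIM proteins of focal adhesions, *Lpp*, a gene of 599 kb, had 15 SOX11 peaks and 1 SOX4 peak. Of the 15, 11 lay in the gene or within 10 kb of it. *Limd1* had 2 SOX11 peaks and 1 SOX4 peak, *Trip6* and *Ajuba* had 2 SOX11 peaks each, *Zyx* had 1 and *Wtip* none. *Prickle1*, a relative of *Tes*, had 4, and *Prickle2*, *Prickle3* and *Lmcd1* had none. *Marcks* had 3 and *Farp2* had 2. Of the β-tubulin genes *Tubb2a* and *Tubb2b* had 4 SOX11 peaks and 1 SOX4 peak each, *Tubb5* had 2 and 1, *Tubb1*, *Tubb4b* and *Tubb6* had 1 SOX11 peak each, and *Tubb4a* had none. Within 1 kb of a start, a SOX4 peak was found at *Lpp*, *Limd1*, *Tubb2b* and *Tubb5*.

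Most genes of the wider cytoskeletal lists had a SOX11 peak, as did 57.3% of all protein-coding genes. Some of these genes are also among the relatives above, namely *Enah*, *Vasp*, *Zyx*, *Lpp*, *Trip6* and the β-tubulins. The shares are thus not independent of those of the relatives. A SOX11 peak was given to 20 of 21 genes of actin bundling and filopodia (95.2%), 22 of 23 of focal adhesion (95.7%), 16 of 18 of branched actin (88.9%) and 10 of 14 tubulins (71.4%). The median number was 3, 3, 1 and 1 SOX11 peaks a gene, and it was 3 over the 7 genes and 1 over all protein-coding genes. SOX4 peaks were given to 8 (38.1%), 7 (30.4%), 3 (16.7%) and 4 (28.6%) genes of these lists, beside 13.1% of all protein-coding genes. The genes with the most SOX11 peaks in the gene or within 10 kb were *Fmnl2* (8), *Cdc42* (5) and *Actn1* (4) among those of actin bundling, *Lpp* (11), *Tns3* (8), *Tns1* (6) and *Src* (6) of focal adhesion, *Wasf2* (5) and *Abi1* (3) of branched actin, and *Tubb2a*, *Tubb2b* and *Tubb5* (2 each) of the tubulins. The window grows with the gene, and the part of gene length in these counts was not tested. The 9 other cytoskeletal targets named by the study, led by *Arhgef2* (5) and *Ror2* (3), all had a SOX11 peak, which their choice fixes. A SOX4 peak was given to 1 of them (11.1%), beside 13.1% of all protein-coding genes. It was *Tmsb10*, which is also in the list of actin bundling and filopodia.

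**Figure D5:**
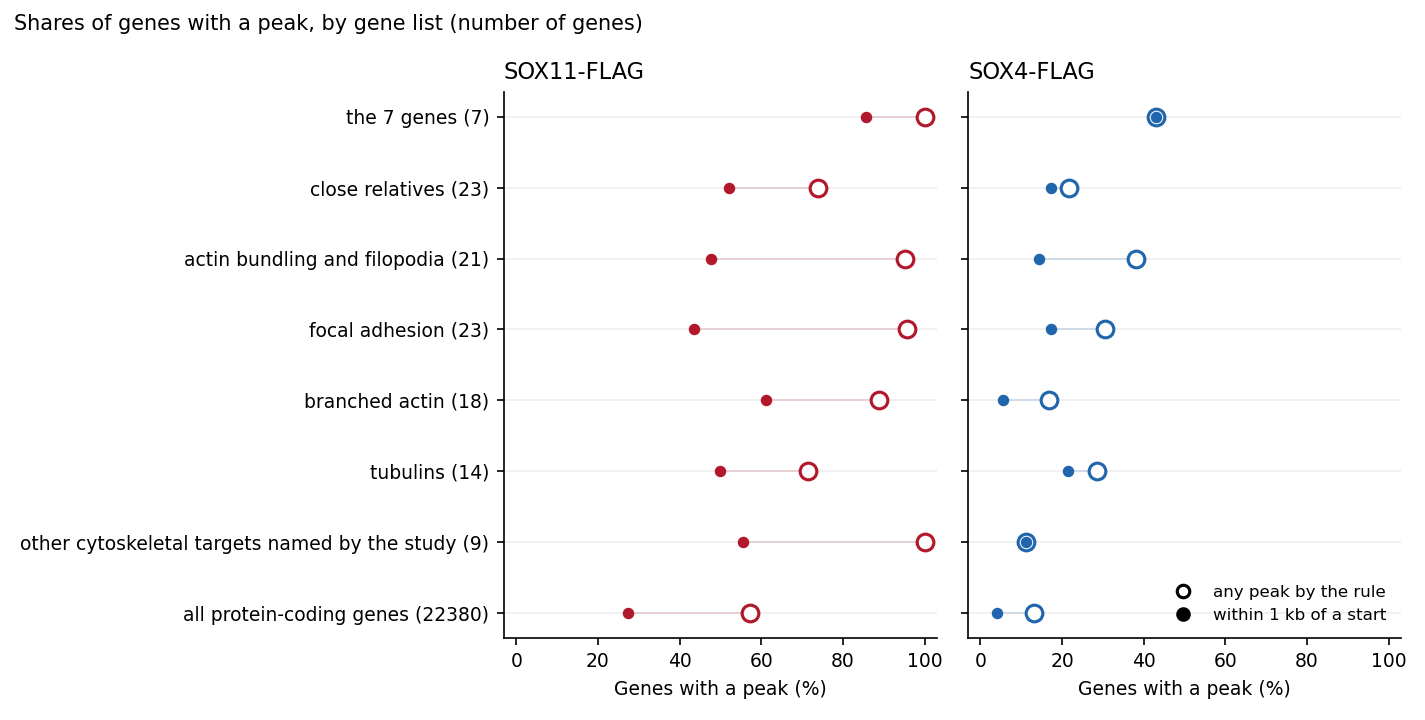
Share of genes with a SOX11-FLAG (left) or SOX4-FLAG (right) peak by the rule (open circles) and within 1 kb of a start (filled circles), for the 7 genes, for each list and for all protein-coding genes, with the number of genes in parentheses. A SOX11-FLAG peak within 1 kb of a start is present in 85.7% of the 7 genes, 43.5% to 61.1% of the lists and 27.4% of all genes. The 7 genes were chosen as SOX11 targets, which partly fixes this contrast. Some genes are in more than 1 list.

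Many genes had the same numbers of peaks as these. The pattern of *Fscn1* and *Farp1*, 1 SOX11 peak and no SOX4 peak, was shared with 5431 other genes, that of *Marcksl1* with 785, that of *Tubb3* with 1096, that of *Evl* with 427 and that of *Fblim1* and *Tes* with 384. Among genes with the same numbers, the one whose earliest SOX11 peak stood nearest in the list was *Zfand2a* for *Fscn1*, *Col15a1* for *Evl*, *Ppil3* for *Fblim1*, *Pdhx* for *Tes* and *Sox21* for *Farp1*. For *Marcksl1* and *Tubb3* it was the neighbour that shares the same peaks, *Hdac1* and *Mc1r*.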

How the data were processed

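ChIP-seq of SOX11-FLAG and SOX4-FLAG in dcKO keratinocytes was used. The authors mapped single-end reads to mm9 with Bowtie2 at default settings, removed duplicates with Picard MarkDuplicates, called peaks with HOMER (findPeaks, factor style) and subtracted blacklisted regions with bedtools; versions are not given in the sources used here. The deposited values are peak coordinates, neither counts nor coverage, pooled over the 2 libraries of a factor; whether HOMER was given the control is not stated. Starts were read as 0-based.

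Centres were placed on protein-coding transcripts of GENCODE M1 with Python 3.11.15 and numpy 2.4.6. Overlaps were checked with bedtools 2.31.1, and motif letters were searched on either strand of sequence read through samtools 1.23.1 and pysam 0.24.0; figures were drawn with matplotlib 3.10.9. These steps were tested on simulated data. The TEAD core was added after seeing the data. Named were the 7 genes with every peak, the genes holding or nearest to them, listed relatives with a peak, up to 4 genes a list with the most SOX11 peaks within 10 kb, and the most alike genes. The genes, lists and rules were chosen with earlier results of these data known. Of 33 alternatives, 24 were planned and 9 were chosen after seeing the data. One list of genes is not reported here. Microarray and reporter data were not analysed here.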

Additional observations from a re-analysis of the deposited data

How the results depend on the processing

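With 1 pooled list per factor, no replicate could be left out. No paired analysis was possible because the replicates were pooled before deposit. Of the 33 alternatives over 8 counts, 29 stayed within 1.5 times the value given and 4 did not. Without the nearest-start part of the rule, the 7 genes had 10 SOX11 peaks in place of 16, and *Fscn1* had none. With promoters of 1 kb on each side of a start, 8 of the 16 SOX11 peaks were in promoters in place of 5, beside 27.7% of the whole list. With the 10-letter AP-1 motif and 1 mismatch, 3 SOX11 peaks had it in place of 1, beside 41.1%, and within 50 bp of the centre 0 had the AP-1 core, beside 16%. The SOX core stayed common with 7-letter cores (10 of 16, beside 26.6%), with the 10-letter SOX motif and 1 mismatch (11 of 16, beside 47.3%) and within 50 bp of the centre (12 of 16, beside 46.4%). In the first 50% of each list there were 14 SOX11 peaks and 2 SOX4 peaks, since the SOX4 peak of *Fblim1* is in the later part, and with 50 kb around the genes there were 22 and 4. Starts of all transcripts gave 13 SOX11 peaks, 3 with SOX4 overlap. A limit of 500 bp from a start gave 5 genes with a SOX11 peak in place of 6, and 2000 bp gave 6. A gene with no peak here is one without a listed peak: the depth and the threshold are unknown, and peaks below it are not in the lists.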
